A study of Mus musculus with 10 samples.

Results

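Mesenchymal transcription factors are DNA-binding proteins that set or keep the identity of connective tissue cells such as fibroblasts, stellate cells and osteoblasts. Runx1, Runx2, Prrx1, Prrx2, Twist1, Twist2, Snai1, Snai2 and Tead1 were taken by gene name from a fixed list of such factors, and all 9 were found among the 21934 gene symbols of the deposited tables. RUNX proteins bind DNA together with the partner Cbfb: Runx1 is needed to form blood stem cells, and Runx2 is the master factor of osteoblasts. Prrx1 and Prrx2 are paired-related homeodomain proteins of limb and skull mesenchyme. Twist1 and Twist2 are basic helix-loop-helix (bHLH) proteins, and Snai1 and Snai2 are zinc finger repressors, that are known for driving the epithelial-to-mesenchymal transition (EMT). Tead1 is the DNA-binding partner of the coactivators Yap1 and Wwtr1 in the Hippo pathway. In liver, such genes are mostly known from stellate cells, fibroblasts and tumour cells that have gone through EMT, and Runx1 also from macrophages.

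The libraries came from mouse cells and were of 2 kinds: ribosome profiling (Ribo-seq), which sequences the mRNA stretches that ribosomes shield from nuclease (footprints), and polyadenylated input RNA. A monoclonal immortalized bone marrow-derived macrophage line (iBMDM) was infected with lentivirus carrying the guide RNA sgWdr4-1 or sgWdr4-2 against Wdr4 and selected with puromycin, and was set against a line labelled WT. Tumour-associated macrophages (TAM) were sorted by the surface protein F4/80 from orthotopic liver tumours of the mouse hepatoma line Hepa1-6, grown in mice with a myeloid-specific Wdr4 knockout (cKO) or in floxed Wdr4 mice (ff). Each of the 5 conditions had 1 input and 1 footprint library, so no difference below has a replicate check. The sources used here do not give the promoter that drives the deletion, the age and number of mice, any pooling, or how the WT line was infected. The study's title asks how Wdr4, the partner of the tRNA methyltransferase Mettl1, acts on translation efficiency.

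Values are TPM, a transcript level scaled for gene length and library total, deposited in 1 table for the 6 iBMDM libraries and 1 for the 4 TAM libraries. Because TPM holds no read numbers, the depth behind each value is unknown. A gene counted as measured when its input and its footprints each averaged at least 5 TPM over a table, which left 7536 genes for the iBMDM lines and 7101 for the TAM samples. Differences were taken within a table after adding 1 to each TPM and taking log2, so those of low genes are understated. Translation efficiency is the footprint level less the input level on this log2 scale. The size threshold was 2-fold, which is 1 on that scale. The values of these same contrasts were known when the genes were chosen, so they are given as a description and no test was run.

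Wdr4 levels did not all go with the labels. Input Wdr4 was 31.3 TPM in sgWdr4-1, 44.5 TPM in sgWdr4-2 and 44.6 TPM in WT, and 20.9 TPM in cKO against 39.8 TPM in ff. Wdr4 footprints were higher in each targeted library than in its control, by 1.82-fold under sgWdr4-1, 2.01-fold under sgWdr4-2 and 2.08-fold in cKO, so a direction given here holds between libraries as they are labelled. Wdr4 input was lower than in the control for sgWdr4-1 and cKO, and nearly the same for sgWdr4-2. The sequence of Wdr4 was not read here, so these levels do not show whether a guide altered the gene. The sgWdr4-1 footprint library had 0.781% of its TPM in mitochondrially encoded genes, against 9.94% to 14.6% in the other footprint libraries. The robust SD of all gene differences in footprints was 0.916 for sgWdr4-1, 0.516 for sgWdr4-2 and 0.536 for cKO. The part of these properties in the results was not tested.

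All of the 9 factors were present in input RNA of every condition, between 8.91 TPM (Prrx1 in WT) and 105.5 TPM (Tead1 in cKO). Of 17 listed myeloid lineage factors, 11 were under 1 TPM in every input library, among them Spi1, the master factor of macrophages, whose highest input was 0.241 TPM, and Irf8, with a highest input of 0.077 TPM. Of 12 hepatocyte lineage factors, 11 were under 1 TPM in every input, including Hnf4a. Of 28 other mesenchymal lineage factors, 14 were at 5 TPM or more in every input and 7 were under 1 TPM in every input. Srf (93.6 to 138.1 TPM), a factor of contractile genes, and Nfix (47.8 to 61.5 TPM) were the highest of them, and Meox1, Meox2, Tcf21 and Barx1 were listed at 0.

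Cell type markers were read in the same libraries to check the labelled cells. Of 19 macrophage markers, 16 were under 1 TPM in every input, with Adgre1 (the F4/80 protein), Aif1, C1qa, C1qb and C1qc listed at 0; their summed input was 17.8, 20.5 and 20.4 TPM in sgWdr4-1, sgWdr4-2 and WT, and 19.6 TPM in cKO against 24.4 TPM in ff. Cd14 was the single member at 5 TPM or more in every input. Of 14 fibroblast and stellate markers, 8 were at 5 TPM or more in every input, and their sum was 5350, 4670 and 4600 TPM in sgWdr4-1, sgWdr4-2 and WT, and 6680 TPM in cKO against 4600 TPM in ff. The other 6 (Pdgfra, Dcn, Lum, Fap, Thy1 and Des) were under 1 TPM in every input, with Lum listed at 0. The matrix genes Postn (173.1 TPM in cKO against 64.0 TPM in ff) and Lox (357.9 TPM against 172.2 TPM) were higher in cKO input by more than 2-fold; the part of this in the results was not tested. Of 12 hepatocyte and hepatoma markers 9, of 7 endothelial markers 6 and of 10 lymphocyte markers 10 were under 1 TPM in every input. The apolipoprotein genes Apoa2 and Apoa1 of the hepatocyte list were at 5 TPM or more in every input: Apoa2 had 118.0 and 100.02 TPM in sgWdr4-1 and sgWdr4-2 against 105.3 TPM in WT, and 139.5 TPM in cKO against 90.2 TPM in ff. Apoa1 had 21.3 and 8.06 TPM against 8.31 TPM in the iBMDM lines, and 26.5 TPM in cKO against 7.76 TPM in ff. Both were thus higher in sgWdr4-1 and cKO than in their controls, and the part of this in the results was not tested. The defining macrophage genes were thus at or near 0, while part of the fibroblast and stellate markers were present, in libraries labelled macrophages. Most macrophage markers thus did not go with the labelled cells, in the iBMDM lines and in the F4/80-sorted samples alike, and the reason was not tested. Where a marker differed between bulk samples such as these, fewer cells of a type and less RNA per cell cannot be told apart.

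**Figure D1:**
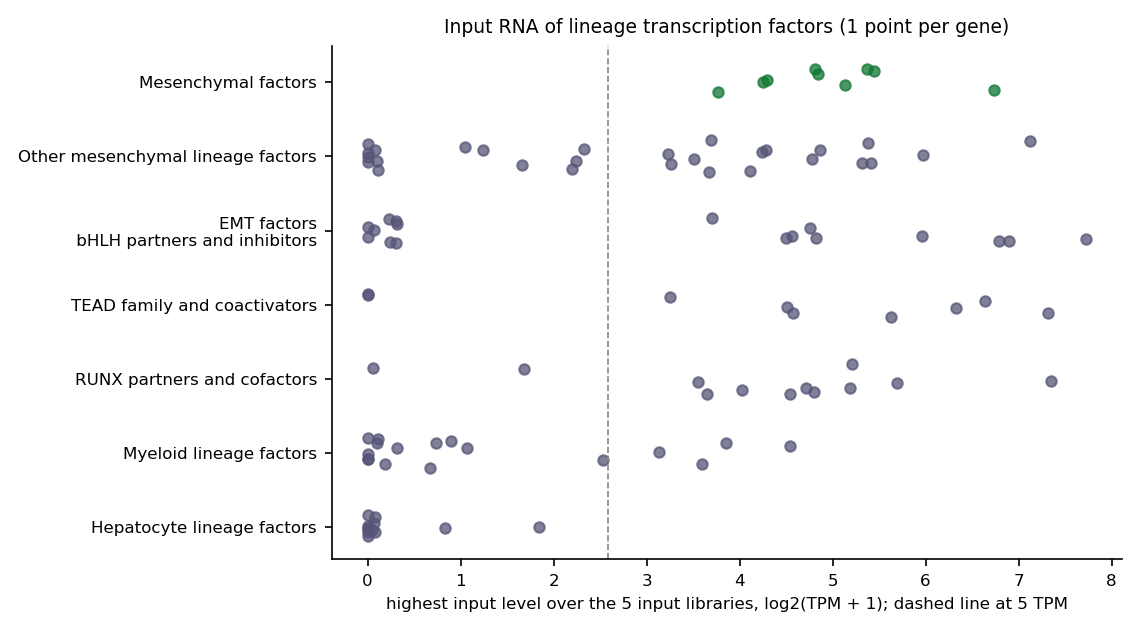
Highest input level of each gene over the 5 input libraries, as log2(TPM + 1) on the horizontal axis, with 1 point per gene and 1 row per gene list (vertical jitter has no meaning); the dashed line marks 5 TPM. All 9 mesenchymal factors lie right of the line, while 11 of 17 myeloid and 11 of 12 hepatocyte factors were under 1 TPM.

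Input RNA rarely differed by 2-fold for any gene, so staying within 2-fold does not set the factors apart. No factor of the 8 that were measured in both kinds was 2-fold apart in input in any contrast, where 0.398% of all genes were under sgWdr4-1, 0.0663% under sgWdr4-2 and 1.59% in cKO. The lowest and the highest input difference were -0.40 (Prrx2) and 0.41 (Runx1) under sgWdr4-1, -0.21 (Snai2) and 0.16 (Runx1) under sgWdr4-2, and -0.47 (Prrx2) and 0.56 (Tead1) in cKO. Of all genes, 2.75% were as low as Prrx2 and 8.44% as high as Runx1 under sgWdr4-1. Under sgWdr4-2, 4.91% were as low as Snai2 and 8.76% as high as Runx1. In cKO, 2.77% were as low as Prrx2 and 8.15% as high as Tead1. The median difference of the 8 was 0.15, 0.13 and 0.20, beside 0.08, 0.01 and 0.06 over all measured genes, for sgWdr4-1, sgWdr4-2 and cKO in that order. Footprints spread more widely than input: the ratio of the highest to the lowest library was larger in footprints for 7 of 8 factors in the iBMDM table (all but Prrx1) and for 7 of 8 in the TAM table (all but Snai2). The same held for 93.6% and 70.9% of all measured genes above 0 in every library, so a wider footprint spread was common in these tables.

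**Figure D2:**
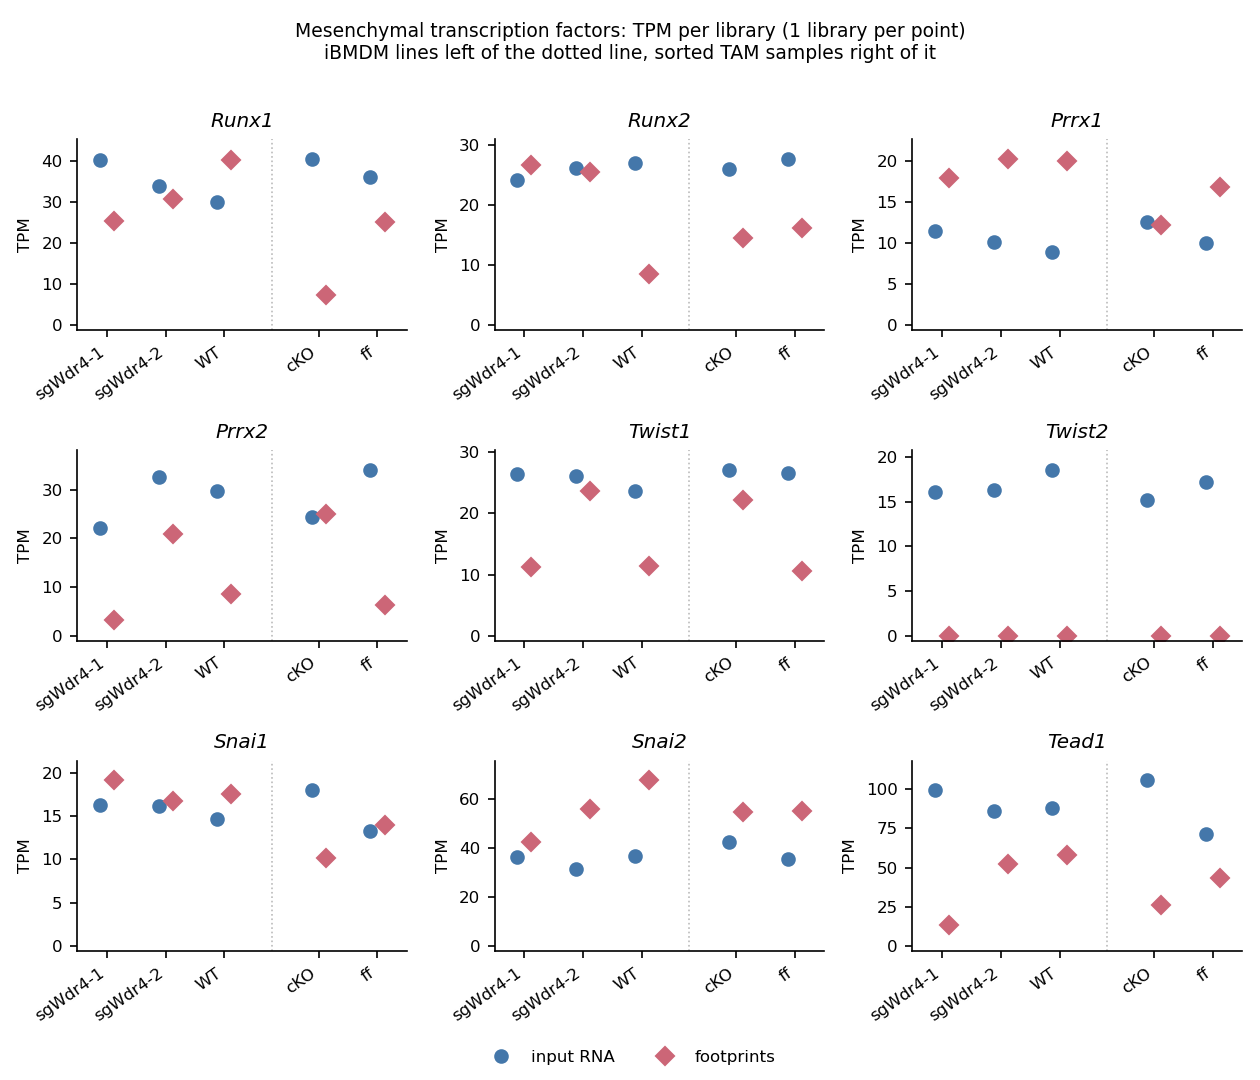
TPM (vertical axes, each from 0 with its own scale) of each factor in the 5 input (circles) and 5 footprint (diamonds) libraries, 1 library per point; iBMDM lines stand left of the dotted line and TAM samples right of it. Input points stay close together while footprints of Runx1, Runx2, Prrx2, Twist1 and Tead1 move, and Twist2 footprints are listed at 0 in every library.

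Among the RUNX factors, Runx2 had more footprints in both guide lines than in WT at nearly the same RNA level. Runx2 footprints were 26.6 TPM in sgWdr4-1 and 25.6 TPM in sgWdr4-2, against 8.46 TPM in WT. Runx2 input was 24.1 and 26.2 TPM in those lines, against 27.0 TPM in WT. The 2 guide lines lay close together and the lone WT footprint library lay below both, and both comparisons share it. The differences in footprints were 1.54 under sgWdr4-1 and 1.49 under sgWdr4-2, and those in translation efficiency 1.70 and 1.53. Of all genes, 3.01% had a translation efficiency difference as high under sgWdr4-1 and 0.61% under sgWdr4-2. Runx2 was the single factor of the 8 past 2-fold in the same direction under both guides, where 0.902% of all genes were higher and 2.04% lower in translation efficiency. In the TAM table Runx2 footprints were 14.5 TPM in cKO against 16.2 TPM in ff, and input was 26.0 TPM against 27.6 TPM. There the difference in translation efficiency was -0.06, and 0.22 after rescaling to the same median.

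Runx1 had fewer footprints per RNA in each targeted library than in its control. Runx1 footprints were 25.5 TPM in sgWdr4-1 and 30.7 TPM in sgWdr4-2, against 40.2 TPM in WT, while input was 40.4 and 33.8 TPM against 30.1 TPM. In the TAM table its footprints were 7.39 TPM in cKO against 25.1 TPM in ff, with input at 40.5 TPM against 36.2 TPM. Between the TAM samples, footprints were thus lower in cKO, where the RNA was slightly higher. The difference in translation efficiency was -1.05 under sgWdr4-1, -0.55 under sgWdr4-2 and -1.79 in cKO, and 12.3%, 17.9% and 3.25% of all genes were as low. With a pseudocount of 5 the sgWdr4-1 value was -0.94, within 2-fold. The cKO difference in footprints was -1.64, the 102nd lowest of 7101 genes.

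The promoters of these 2 genes are shown because their footprints differed in opposite directions between guide lines and WT. Of the 2, only Runx2 was past 2-fold there, with Runx1 footprints at -0.64 under sgWdr4-1 and -0.38 under sgWdr4-2. RNA levels of both stayed within 2-fold, as did those of the other measured factors. The sequences are from RefSeq on GRCm38.p6, and 8 windows for 7 of the factors were used; those of Snai2 and Tead1 were not analysed here. Each run below is the 250 bases before the start, 5′ to 3′ on the gene's strand, with E-boxes (CANNTG, the motif class that Twist and Snail type factors bind) in capitals. Runx1 is given at the more upstream of its 2 starts, chr16:92826075-92826324 on the minus strand, and Runx2 at chr17:44814628-44814877 on the minus strand.
Runx1: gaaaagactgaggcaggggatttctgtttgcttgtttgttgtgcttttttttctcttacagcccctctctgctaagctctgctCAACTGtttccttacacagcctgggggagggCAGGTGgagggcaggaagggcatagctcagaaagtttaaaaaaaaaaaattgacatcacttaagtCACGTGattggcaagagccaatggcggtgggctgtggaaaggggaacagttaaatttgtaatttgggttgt
Runx2: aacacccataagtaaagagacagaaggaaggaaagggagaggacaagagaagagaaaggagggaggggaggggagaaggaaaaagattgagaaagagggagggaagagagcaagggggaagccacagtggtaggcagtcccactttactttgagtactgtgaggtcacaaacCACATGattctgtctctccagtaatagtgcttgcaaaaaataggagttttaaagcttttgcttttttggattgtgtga
Shared run: aaacaACCACAgaACCACAagt
The shared run is the longest that the 300-base windows of any 2 different factors had in common, at 22 bases, and begins 24 bases after the Runx1 start and 19 bases after the Runx2 start. Its capitals mark ACCACA, the reverse complement of the RUNX motif TGTGGT. The next longest run shared by any pair of factors was 11 bases. Searched on both strands of the whole 300-base window, TGTGGT occurred 2 times at this Runx1 start and 3 times at Runx2, and in none of the other 6 windows, while 16.8% of 32851 RefSeq windows held it. The 2 ACCACA copies in the shared run are both of the Runx1 matches and 2 of the 3 at Runx2, so these counts largely repeat the shared run. E-boxes were found in 3 of the 8 windows and in 72.3% of all windows; an E-box of the letters CAGGTG, the form that Snail proteins bind, was in 2 of 8 and in 20.2%, and overlaps the E-box search by construction. The TEAD motif GGAATG was in 2 of 8 and in 14.7%. GC content was 45.0% at this Runx1 start, 45.3% at Runx2 and 47.7% at Prrx1, against 64.7% to 70.3% in the other 5 windows, with a median of 52.7% over all windows. A match is a description of the letters and no sign of binding.

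The paired-related homeobox genes differed from each other. Prrx2 footprints were 3.27 TPM in sgWdr4-1 and 21.0 TPM in sgWdr4-2, against 8.57 TPM in WT, and 24.9 TPM in cKO against 6.29 TPM in ff. Prrx2 input was 22.2 and 32.7 TPM against 29.7 TPM in the iBMDM lines, and 24.4 TPM in cKO against 34.1 TPM in ff. The sgWdr4-1 footprints lay below WT and the sgWdr4-2 footprints above it, and cKO lay above ff. The footprint difference was -1.17 under sgWdr4-1, 1.20 under sgWdr4-2 and 1.83 in cKO, and the difference in translation efficiency -0.76, 1.06 and 2.30. The cKO value was the 20th highest of 7101 genes, and relative to the median of all genes, at -0.25 there, it was 2.55. With a pseudocount of 5 the sgWdr4-1 footprint difference was -0.72 and the sgWdr4-2 difference 0.94, and translation efficiency under sgWdr4-2 was 0.82, all within 2-fold.

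Prrx1, in contrast, had lower RNA and more footprints per RNA. Prrx1 input was 11.4 and 10.1 TPM in sgWdr4-1 and sgWdr4-2 and 8.91 TPM in WT, and its footprints were 18.0, 20.2 and 20.04 TPM. In the TAM table input was 12.6 TPM in cKO against 10.05 TPM in ff, and footprints were 12.2 TPM against 16.9 TPM. Its translation efficiency was the highest of the 8 factors in 4 of 5 conditions, 0.61 in sgWdr4-1, 0.93 in sgWdr4-2, 1.09 in WT and 0.70 in ff, and was -0.04 in cKO, where Snai2 and Prrx2 were higher. In WT it was above 91.4% of all measured genes, and Prrx2, at -1.68, was above 16.5%. None of its differences between conditions reached 2-fold; the largest was -0.74 for translation efficiency in cKO.

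Twist1 had about 2 times the footprints in sgWdr4-2 and in cKO that it had in their controls, and no more in sgWdr4-1. Twist1 footprints were 11.3 TPM in sgWdr4-1 and 23.7 TPM in sgWdr4-2, against 11.4 TPM in WT, and 22.2 TPM in cKO against 10.7 TPM in ff. Input stayed between 23.7 and 27.1 TPM in all 5 libraries. The TPM ratio of footprints was 2.09 in sgWdr4-2 and 2.08 in cKO, while the difference on the log2(TPM + 1) scale was 1.00 and 0.99, just short of the threshold before rounding. It passed with a pseudocount of 0.1 (1.05 in each) and after rescaling to the same median (1.08 and 1.22). These 2 values stand just outside the size threshold, and the nearest value inside it was the Runx1 translation efficiency under sgWdr4-1, at -1.05.

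Twist2 footprints were listed at 0 in all 5 footprint libraries, although its input was 16.1 and 16.3 TPM in sgWdr4-1 and sgWdr4-2 against 18.6 TPM in WT, and 15.2 TPM in cKO against 17.3 TPM in ff. Twist2 was therefore not measured for translation efficiency and is left out of each count of 8. Of 7263 genes with at least 10 TPM in every input, 17 were listed at 0 in every footprint library. Rpl5 and Rps26, ribosomal proteins with at least 1302 TPM of input, and Cycs, cytochrome c, were among them, and these are genes that every cell uses. A listed 0 in these files can thus be a value that was not estimated, and it is not read as a lack of Twist2 translation. Twist1 and Twist2 are close relatives, and how reads that map to both were handled is not given in the sources used here, so the footprints of both are uncertain in this respect.

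The Snail repressors stayed within 2-fold in each contrast. Snai2 footprints were 42.5 TPM in sgWdr4-1 and 56.0 TPM in sgWdr4-2, against 67.6 TPM in WT, and 54.6 TPM in cKO against 55.0 TPM in ff. Its input was 36.4 and 31.5 TPM against 36.6 TPM, and 42.4 TPM in cKO against 35.5 TPM in ff. Snai2 thus had more footprint than input TPM in all 5 conditions, and its translation efficiency lay above 75.3% to 89.0% of all genes. Snai1 footprints were 19.1, 16.7 and 17.6 TPM in sgWdr4-1, sgWdr4-2 and WT, and 10.1 TPM in cKO against 14.0 TPM in ff. Snai1 input was 16.3, 16.1 and 14.7 TPM in the same iBMDM lines, and 18.0 TPM in cKO against 13.3 TPM in ff. No difference of Snai1 or Snai2 reached 2-fold; the largest were -0.84 for Snai1 translation efficiency in cKO and -0.66 for Snai2 footprints under sgWdr4-1. With libraries rescaled to the same median, the Snai2 translation efficiency difference in cKO turned from -0.26 to 0.04.

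Tead1 had the highest input of the 9 factors and few footprints in sgWdr4-1. Tead1 footprints were 13.5 TPM in sgWdr4-1 and 52.1 TPM in sgWdr4-2, against 57.8 TPM in WT, and 26.3 TPM in cKO against 43.7 TPM in ff. Its input was 99.6 and 85.9 TPM against 88.3 TPM, and 105.5 TPM in cKO against 71.2 TPM in ff. The sgWdr4-1 footprints stood apart from both other iBMDM libraries, which lay close together. The difference in translation efficiency was -2.20 under sgWdr4-1, where 0.916% of all genes were as low, -0.11 under sgWdr4-2 and -1.27 in cKO. The sgWdr4-1 value rests on the library low in mitochondrially encoded TPM. In cKO the lower translation efficiency came with a higher input (0.56) and lower footprints (-0.71), and after rescaling to the same median it was -0.98.

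Counted together, 1 of 8 measured factors was at least 2-fold higher and 2 were lower in footprints under sgWdr4-1, beside 16.1% and 10.3% of all genes. Under sgWdr4-2, 2 were higher and 0 lower, beside 3.03% and 4.63%. In cKO 1 was higher and 1 lower, beside 2.73% and 8.15%. For translation efficiency the counts were 1 higher and 2 lower under sgWdr4-1 (14.8% and 13.7% of all genes), 2 and 0 under sgWdr4-2 (3.53% and 4.87%), and 1 and 2 in cKO (4.03% and 16.0%). Prrx2 was higher under sgWdr4-2 and in cKO, Runx2 under both guides, and Runx1 and Tead1 were lower under sgWdr4-1 and in cKO. The median difference in translation efficiency of the 8 was -0.56 under sgWdr4-1, -0.08 under sgWdr4-2 and -0.50 in cKO, beside 0.01, -0.05 and -0.25 over all genes. The cKO footprints of all genes had a median difference of -0.20, and these cKO medians came to 0.02 and -0.01 once libraries were rescaled to the same median. Relative to the median of all genes, translation efficiency in cKO was 2.55 for Prrx2, 1.22 for Twist1, -1.54 for Runx1 and -1.02 for Tead1. These contrasts were known when the genes were chosen, so nothing is read from the shares.

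**Figure D3:**
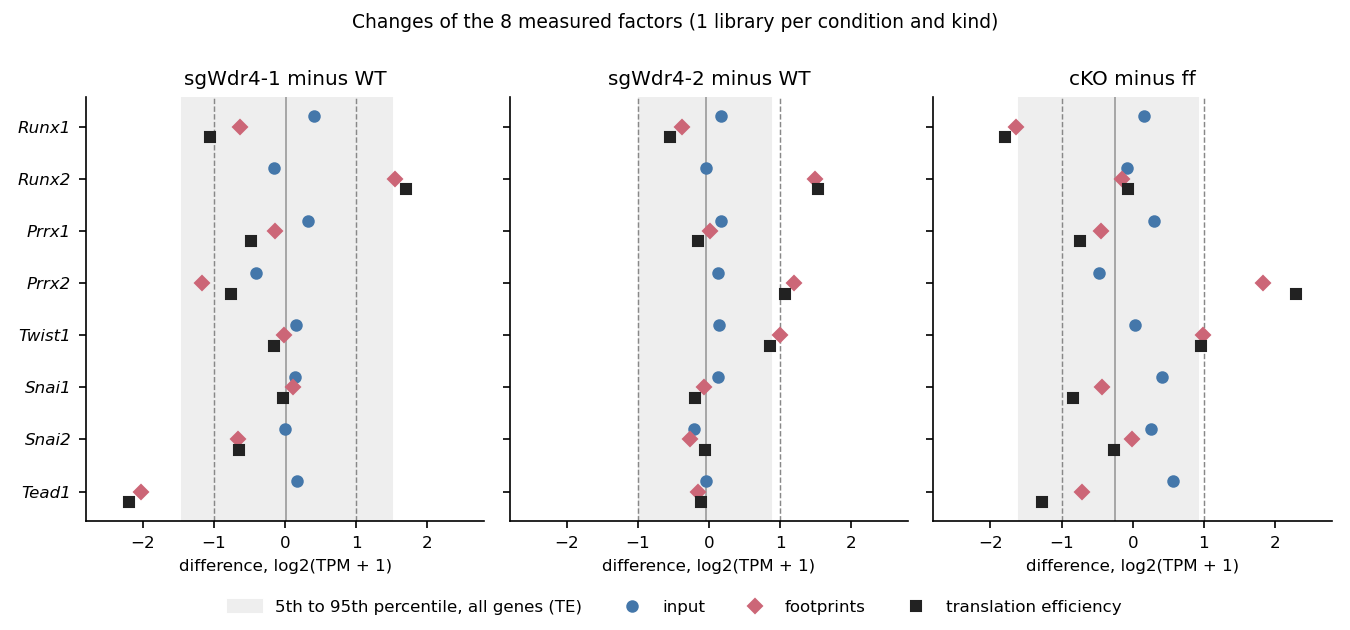
Differences on the log2(TPM + 1) scale (horizontal axes) of the 8 measured factors (rows) for sgWdr4-1 minus WT, sgWdr4-2 minus WT and cKO minus ff, in input (circles), footprints (diamonds) and translation efficiency (squares). Grey bands span the 5th to 95th percentile of translation efficiency differences over all measured genes, the grey line is their median and dashed lines mark 2-fold; Runx2 lies right of the band under both guides, Prrx2 right of it under sgWdr4-2 and in cKO, Twist1 right of it in cKO, and Tead1 left of it under sgWdr4-1 and Runx1 in cKO.

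Levels of translation efficiency ordered the factors alike in part of the conditions. In sgWdr4-1 and sgWdr4-2 the order began with Prrx1, Snai2, Snai1 and Runx2 and ended with Prrx2 and Tead1. In WT it began with Prrx1 and Snai2 and ended with Runx2 (-1.57) and Prrx2 (-1.68). In cKO it began with Snai2 (0.36) and Prrx2 (0.03) and ended with Tead1 (-1.97) and Runx1 (-2.31), and in ff it began with Prrx1 (0.70) and Snai2 (0.62) and ended with Twist1 (-1.24) and Prrx2 (-2.27). Prrx2 was thus second in cKO and last in ff. With 1 library per condition no neighbours in an order can be told apart by a replicate spread. Above the median of all genes were 4 of 8 factors in sgWdr4-1, 7 in sgWdr4-2 and 4 in WT, and 6 in cKO and 4 in ff.

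**Figure D4:**
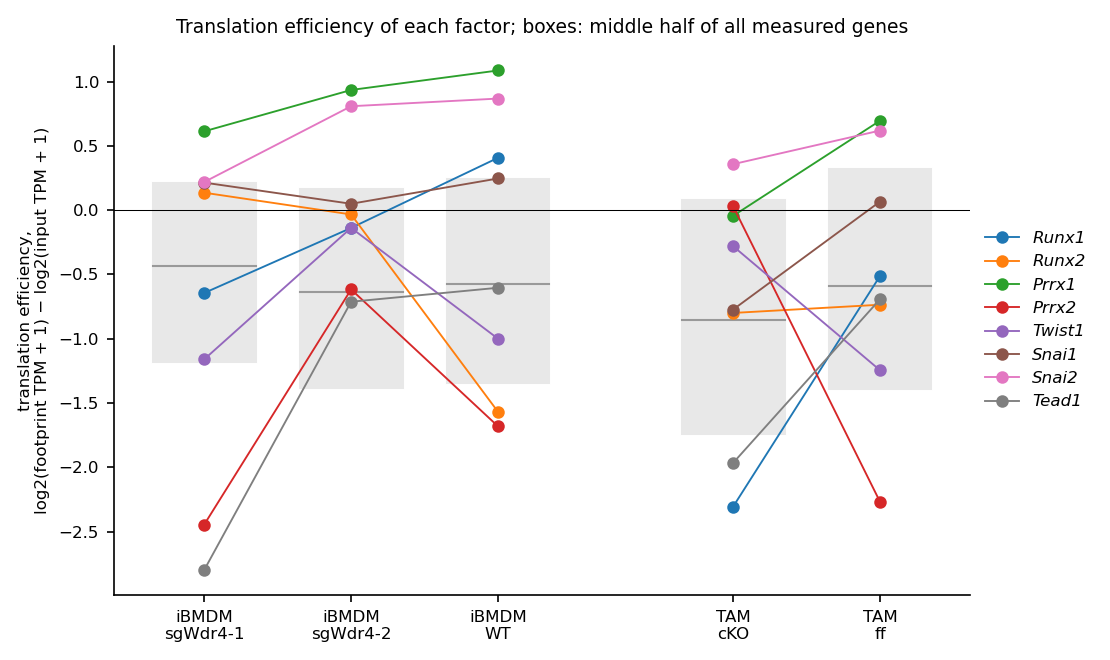
Translation efficiency of the 8 measured factors, as log2(footprint TPM + 1) minus log2(input TPM + 1) on the vertical axis, in the 5 conditions, with lines joining a factor within a table; grey boxes span the 25th to 75th percentile of all measured genes and grey lines their median. Prrx1 and Snai2 lie above the boxes in sgWdr4-2, WT and ff, and Prrx2 lies inside the box in cKO and below it in ff.

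Partners and family members of the factors were read from lists chosen by name. Of 12 RUNX partners and cofactors, 7 were measured in the iBMDM lines and 6 in the TAM samples. Runx3, the third RUNX gene, was past 2-fold in translation efficiency in each contrast: 1.05 under sgWdr4-1, 1.47 under sgWdr4-2 and 1.07 in cKO. Of all genes, 14.8%, 3.53% and 4.03% were at least 2-fold higher in those contrasts. Its footprints were low, between 3.36 and 11.2 TPM, with input between 22.5 and 27.0 TPM, and with a pseudocount of 5 the values were 0.69, 0.96 and 0.66. With histone, ribosomal protein and mitochondrially encoded genes left out of the scaling, the sgWdr4-1 value was 0.99. Cbfb, the shared partner of the RUNX proteins, was within 2-fold in all (-0.94, 0.27 and 0.17). Of the rest, Hdac6, a deacetylase that binds Runx2, was higher under sgWdr4-1 (1.15, and 0.79 with a pseudocount of 5), beside 14.8% of all genes. Cbfa2t2, a corepressor of the Runx1t1 family, was lower in cKO (-1.55), beside 16.0% of all genes. The median over the measured list was 0.22, 0.26 and -0.06, beside 0.01, -0.05 and -0.25 over all genes.

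Among osteoblast genes that Runx2 controls, Sp7, Ibsp and Alpl were listed at 0 in every input and Bglap, Mmp13 and Dlx5 were under 1 TPM, while Spp1 (266.8 to 289.8 TPM) and Col1a1 (425.2 to 594.6 TPM) were well above 5 TPM. Spp1, a secreted matrix protein, was within 2-fold in translation efficiency in each contrast (0.45 under sgWdr4-1, -0.10 under sgWdr4-2 and -0.37 in cKO). Col1a1, a collagen chain, was lower under sgWdr4-1 (-1.53), beside 13.7% of all genes, and stood at -0.72 under sgWdr4-2 and -0.77 in cKO. No input difference of these 2 genes reached 2-fold.

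Besides Tead1, 9 genes of the TEAD family and its coactivators were listed and 6 measured. Of these 6, 0 were past 2-fold in translation efficiency under sgWdr4-1 (14.8% of all genes were higher and 13.7% lower), where Tead1 itself was at -2.20. Under sgWdr4-2 Tead2 alone was higher (1.13, and 0.90 with a pseudocount of 5), beside 3.53% of all genes, and in cKO Tead4 alone was lower (-1.53), beside 16.0%. Yap1, the Hippo pathway coactivator, was at 0.02, 0.27 and -0.16 under sgWdr4-1, sgWdr4-2 and in cKO, and Wwtr1, its relative TAZ, at -0.84, -0.20 and -0.80. Tead1 input, at 71.2 to 105.5 TPM, was above that of Tead2 (40.9 to 48.6 TPM), Tead4 (18.4 to 21.8 TPM) and Tead3 (6.09 to 8.52 TPM) in TPM, which is scaled for length.

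Of 17 EMT factors, bHLH partners and bHLH inhibitors, 9 were measured. In translation efficiency 2 were higher and 1 lower under sgWdr4-1, 0 and 2 under sgWdr4-2, and 2 and 3 in cKO, beside 14.8% and 13.7%, 3.53% and 4.87%, and 4.03% and 16.0% of all genes. Zeb2, an EMT repressor, was lower in each contrast (-1.19, -1.69 and -1.25), although with rescaling to the same median its cKO value was -0.96. Zeb1, its relative, was lower under sgWdr4-2 (-1.95) and higher in cKO (1.23, and 0.95 with a pseudocount of 5). Id1, an inhibitor that binds bHLH proteins, was higher under sgWdr4-1 (1.54) and lower in cKO (-1.67). Id3 was higher under sgWdr4-1 (1.07, and 0.95 with histone, ribosomal protein and mitochondrially encoded genes left out of the scaling). Id2 was higher in cKO (1.15, and 0.99 with a pseudocount of 5), mostly through a lower input (-0.84), with footprints at 0.31. Foxc2 was lower in cKO at -1.01, a call lost with a pseudocount of 5 (-0.59) and with either rescaling (-0.81 and -0.92). The bHLH partners of Twist1 that were measured, Tcf3, Tcf4 and Tcf12, were within 2-fold in translation efficiency in each contrast. In footprints Tcf4 was past 2-fold in cKO, at 22.8 TPM against 9.95 TPM in ff, and within 2-fold under both guides. Tcf12 footprints were 30.0 TPM in sgWdr4-1 and 55.3 TPM in sgWdr4-2, against 29.1 TPM in WT. In cKO they were 57.6 TPM against 29.4 TPM in ff, and all Tcf12 differences were within 2-fold. Tcf3 footprints were within 2-fold in each contrast.

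Of 11 genes that Snail and Twist factors act on, the epithelial genes Cdh1, Epcam, Ocln, Cldn1, Cldn7 and Krt18 were under 1 TPM in every input, and the mesenchymal genes Cdh2, Vim and Fn1 were between 178.6 and 2636 TPM. Vim, vimentin, was higher in translation efficiency under sgWdr4-1 (1.67), beside 14.8% of all genes. Fn1, fibronectin, was lower under sgWdr4-2 (-1.21) and in cKO (-1.94), beside 4.87% and 16.0% of all genes. Of the 28 other mesenchymal lineage factors 9 were measured, and 0 were past 2-fold in translation efficiency in any contrast; all genes were past it in 14.8% (higher) and 13.7% (lower) under sgWdr4-1, 3.53% and 4.87% under sgWdr4-2, and 4.03% and 16.0% in cKO. The median of the 9 was 0.46, 0.16 and -0.14, beside 0.01, -0.05 and -0.25 over all genes.

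The genes whose pattern was most like that of each factor were found by the distance over 6 differences (input and footprints in the 3 contrasts) among 6927 genes measured in both tables. The guide contrasts share the WT libraries, so the 6 differences are not independent. Nearest to Runx1 were Cbfa2t2 (distance 0.392), Chkb and Zmat3, and to Runx2 Uchl1 (0.517), Pmvk and Sertad3. Nearest to Prrx1 were Tmem167b (0.212), Mcfd2 and Erfe, and to Prrx2 Mthfd2l (0.465), Rps12 and Cdk2ap1. Twist1 lay nearest to Tcf12 (0.183), Tmem38a and Cfap20. For Snai1 they were Erfe (0.144), Cmip and Plekho2, for Snai2 S100a1 (0.186), Emp3 and Cda, and for Tead1 Tnrc6a (0.325), Rb1cc1 and Il10rb. Among the factors themselves Prrx1 and Snai1 lay closest, at 0.348, while the nearest other factor to Runx2 was Twist1, at 2.03.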

How the data were processed

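The authors deposited TPM for 10 libraries in 2 tables, a unit taken from the names of the deposited tables and from column sums on that scale; the submitters' processing notes name fastp (version 0.18.0) and Bowtie2 with no role. The sources used here give no quantifier, annotation, genome build or treatment of reads that map to several genes. Where several rows shared a symbol (42 of 21956 rows, 20 symbols), the row with the highest mean was kept. Values were analysed as log2(TPM + 1), a pseudocount of 1, within each table. TPM was not treated as counts, and no interval is given because depth is unknown.

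The factors, gene lists and comparisons were chosen with earlier results of these data known. Named were all 9 factors, list genes past 2-fold (up to 4 per list and direction), list genes at 5 TPM or more where a count was 5 or fewer, and the 3 nearest genes by pattern; Cbfb, Yap1, Wwtr1, Tcf3, Tcf4, Srf, Nfix, Postn, Lox and Klf4 were named after their values were seen. A model of both guide lines against the lone WT line was not run, since these contrasts were known when the genes were chosen. Alternatives were pseudocounts of 0.1 and 5, no filter or a mean of at least 20 TPM, both rescalings and summed rows. Results for some listed genes are not reported here. Computation used pandas 2.3.3 and numpy 2.4.6 under Python 3.11.15; plots used matplotlib 3.10.9.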

Additional observations from a re-analysis of the deposited data

Results flagged for a closer look

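Runx2 differed between the guide lines and the TAM samples: its footprints were higher under both guides (1.54 under sgWdr4-1 and 1.49 under sgWdr4-2) and not in cKO (-0.15), a gap of 1.64 between the smaller guide value and cKO. For translation efficiency the values were 1.70, 1.53 and -0.06, a gap of 1.60. This difference between the guide lines and the TAM samples was not tested. Once rescaled to the same median, the cKO values were 0.05 and 0.22, so that no sign was opposite.

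Prrx2 went opposite ways under the guides: sgWdr4-1 minus sgWdr4-2 was -2.36 in footprints (-1.17 against 1.20 relative to WT) and -1.83 in translation efficiency (-0.76 against 1.06). The difference was not tested, and the sgWdr4-1 footprint value was 3.27 TPM in the library low in mitochondrially encoded TPM.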

How the results depend on the processing

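No paired analysis was possible because the results come from no test, with 1 library per condition and kind. Of 462 values of the factors under alternatives, 437 kept their direction and their side of 2-fold, 5 fell short of it, 9 came past it and 11 that were within 2-fold changed sign; none past 2-fold changed sign. All 9 that came past it were Twist1 values. Of 169 values of the list genes under alternatives, 16 fell short of 2-fold. Counts of factors moved by over 1.5 times or to 0 in 6 of 63 cases, and smaller moves are not in that number. Among the smaller moves, a pseudocount of 0.1 gave 3 factors in footprints for sgWdr4-2 and for cKO, in place of 2. It also gave 4 in translation efficiency for cKO, in place of 3. A pseudocount of 5 gave 2 factors in footprints and in translation efficiency for sgWdr4-1, in place of 3. For sgWdr4-2 a pseudocount of 5 left 1 factor in footprints and 1 in translation efficiency, as did a mean of at least 20 TPM, which also left 0 in footprints and 1 in translation efficiency for cKO, since fewer factors are measured there. Counts over all genes moved by over 1.5 times in 26 of 63 cases. With a pseudocount of 0.1 input gave 9 genes for sgWdr4-2. With a pseudocount of 5 input gave 10, 2 and 55 genes for sgWdr4-1, sgWdr4-2 and cKO, footprints 1287, 269 and 365, and translation efficiency 300 for sgWdr4-2 and 910 for cKO. With no filter input gave 122, 62 and 317, footprints 1296 for sgWdr4-2 and 1646 for cKO, and translation efficiency 1467 and 2769. With a mean of at least 20 TPM input gave 9, 3 and 41, footprints 1070, 179 and 230, and translation efficiency 1154, 204 and 524. These 2 filters also changed how many genes were counted, from 7536 (iBMDM) and 7101 (TAM). No filter left 14836 and 14526 genes, and a mean of at least 20 TPM left 4008 and 3590. A moved count under either filter is therefore partly a change in the size of the set. Rescaling to the same median gave 16 input genes for sgWdr4-1. The other causes were not tested.

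Rescaling to the same median moved the share of calls that were higher from 20.1% to 45.3% for cKO translation efficiency, 25.1% to 49.4% for cKO footprints, 60.9% to 47.7% for sgWdr4-1 footprints and 42.0% to 53.6% for sgWdr4-2 translation efficiency. For input the calls were 8 higher and 8 lower in place of 24 and 6 under sgWdr4-1, and 1 and 3 in place of 2 and 3 under sgWdr4-2. Leaving out mitochondrially encoded, ribosomal protein and histone genes gave 31.9% for cKO translation efficiency, 35.4% for cKO footprints, 44.2% for sgWdr4-1 footprints and 41.0% (52.0% without it) for sgWdr4-1 translation efficiency. Depth is unknown, so what it limits cannot be given.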

Other observations

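Myeloid factors that were present had values of their own. Of 17 listed, 3 were measured: Maf, Cebpb and Cebpd, which also act in cells other than macrophages. Cebpb input was 22.2 TPM in cKO against 7.27 TPM in ff, a difference of 1.49, while its footprints differed by -0.73 and its translation efficiency by -2.22. Klf4 input ranged from 2.23 to 13.5 TPM with footprints of at most 1.77 TPM, so it was not measured. Under sgWdr4-2 Maf (1.10) and Cebpd (1.03) were past 2-fold in translation efficiency, beside 3.53% of all genes that were higher, and with a pseudocount of 5 neither was (0.79 and 0.72). Cebpd was also past it under sgWdr4-1 (1.53), beside 14.8% of all genes.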
